A study of Mus musculus with 6 samples.

Results

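The transcripts of 9 cytoskeletal genes were followed in mouse hepatic stellate cells through activation in culture and exposure to PRI-724. The set held 5 intermediate filament genes (Des, Vim, Nes, Gfap and Synm) and 4 tubulin genes (Tuba1a, Tubb2b, Tubb3 and Tubb6). The genes were taken by symbol. A gene was read from probe sets that the platform annotation gives that symbol alone, and where a gene had several, the probe set with the highest mean over the arrays was used. All 9 were among the 22180 genes with such a probe set and among the 15526 genes with enough signal to be tested.

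Hepatic stellate cells are liver pericytes that store vitamin A, and they were isolated from young mice of 8 to 11 weeks or old mice of 6 to 9 months. For each age there were 3 states, each measured on 1 Affymetrix array from a pool of 5 mice. Quiescent cells came from normal liver and had been plated for 12 h. Activated cells came from the same kind of culture kept for more than 20 days, and received either the vehicle, dimethyl sulfoxide, or C-82 at 10 µM in dimethyl sulfoxide. PRI-724 is converted in the body to C-82, which blocks the binding of beta-catenin to its coactivator CBP, and the treated cells are called PRI-724 here. The labels name no strain, no allele and no length of exposure to C-82, and all cells were grown on uncoated plastic in medium with serum. Values are log2 signals, so a difference of 1 is a doubling. Levels are compared within a gene only, because different probe sets have no common scale.

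With 6 arrays and 1 in each group, no group had a spread of its own. Mean differences of both ages (n = 2 pairs) were tested with limma over all 15526 genes, and ± is the standard error (SE) of that fit. The error measures how far the ages disagreed over all 3 states, moderated by the other genes, and the adjusted p is that of Benjamini and Hochberg, with a threshold of 0.05. A gene is called risen or fallen only past that threshold. Whether a response differed between ages could not be tested.

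The array of young PRI-724 cells stood apart from the other arrays in its signal range. The interquartile range of its signals was 1.71, against 2.11 to 2.43 on the other 5 arrays. Its highest correlation with another array was 0.953, close to the 0.956 and 0.958 of the young and old quiescent arrays. The members' differences of PRI-724 cells are therefore given for the young and the old pair apart. Without that array, none of the 15526 genes was called in either comparison of PRI-724 cells. Acta2, smooth muscle actin and the usual sign of stellate cell activation, was 3.66 ± 0.41 higher in vehicle than in quiescent cells (limma adjusted p = 0.00408).

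Intermediate filaments are rope-like polymers that give a cell tensile strength, and their protein composition marks the cell type. In rodents, desmin and glial fibrillary acidic protein have served as markers of stellate cells, which also contain vimentin and synemin and, once activated, nestin. Microtubules are hollow, polar polymers of alpha- and beta-tubulin dimers that carry transport and position organelles, and their genes form families whose members differ in tissue distribution.

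The sequences just upstream of the RefSeq start sites are shown for Des, Vim and Tuba1a because these were the members called after activation. Each window holds the 250 bases before the start on build GRCm38.p6, written 5′ to 3′ on the gene's strand. It lies at chr1:75360042-75360291 on the plus strand for Des, at chr2:13574061-13574310 on the plus strand for Vim and at chr15:98953502-98953751 on the minus strand for Tuba1a. Capitals mark every match, on either strand, to the motifs searched.
Des: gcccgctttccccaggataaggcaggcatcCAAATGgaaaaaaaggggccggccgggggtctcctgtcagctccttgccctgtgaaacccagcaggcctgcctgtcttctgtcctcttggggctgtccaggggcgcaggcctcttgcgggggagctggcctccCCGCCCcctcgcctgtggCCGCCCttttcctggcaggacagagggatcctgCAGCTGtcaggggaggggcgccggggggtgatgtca
Vim: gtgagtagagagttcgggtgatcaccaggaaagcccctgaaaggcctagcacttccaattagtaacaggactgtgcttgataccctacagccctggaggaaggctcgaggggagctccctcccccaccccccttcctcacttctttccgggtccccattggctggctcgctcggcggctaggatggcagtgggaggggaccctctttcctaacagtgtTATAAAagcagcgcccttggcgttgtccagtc
Tuba1a: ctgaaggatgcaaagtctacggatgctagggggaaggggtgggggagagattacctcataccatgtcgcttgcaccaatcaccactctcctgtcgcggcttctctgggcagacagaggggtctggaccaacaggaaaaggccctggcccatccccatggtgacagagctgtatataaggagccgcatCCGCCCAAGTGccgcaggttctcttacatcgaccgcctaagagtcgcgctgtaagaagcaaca

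The motifs searched were the TATA box TATAAA, the TCF motif CTTTGNT bound by the partners of beta-catenin, the CArG box of serum response factor, the E-box CANNTG and the GC box GGGCGG. Des had E-box matches 220 and 36 bases before the start and GC box matches 87 and 69 bases before it. Vim had a TATA box match 32 bases before the start and no other match. Tuba1a had a GC box match and an E-box match, 63 and 58 bases before the start, that overlap by 1 base. Windows were read for 7 of the 9 genes, not for Tubb2b and Tubb6. Matches were found in 1 of the 7 for the TATA box, 0 for the TCF motif, 0 for the CArG box, 3 for the E-box and 4 for the GC box. Among 32851 windows of the same length over all genes, the shares with a match were 12.4%, 16.0%, 1.5%, 66.2% and 32.7%. A match describes letters in this window only, and nothing is read from it about binding.

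Activation in culture was examined first, as vehicle minus quiescent. Of the 9 genes, 3 rose (Des, Vim and Tuba1a) and 0 fell (limma, adjusted p under 0.05). Over all genes tested, 4.61% rose and 1.26% fell. At an unadjusted p under 0.05, Tubb6 was also higher and 0 members were lower, while 15.7% of all genes were higher and 6.7% lower. The median difference of the 9 genes was 0.61, beside 0.04 over all genes tested. In 6 of the 9 (Des, Vim, Nes, Synm, Tuba1a and Tubb6) both vehicle arrays lay above both quiescent arrays, a pattern met by 33.0% of all genes. None had both vehicle arrays below both quiescent arrays, a pattern met by 24.9%. These are bulk samples, so more cells of a type and more RNA per cell cannot be told apart.

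**Figure D1:**
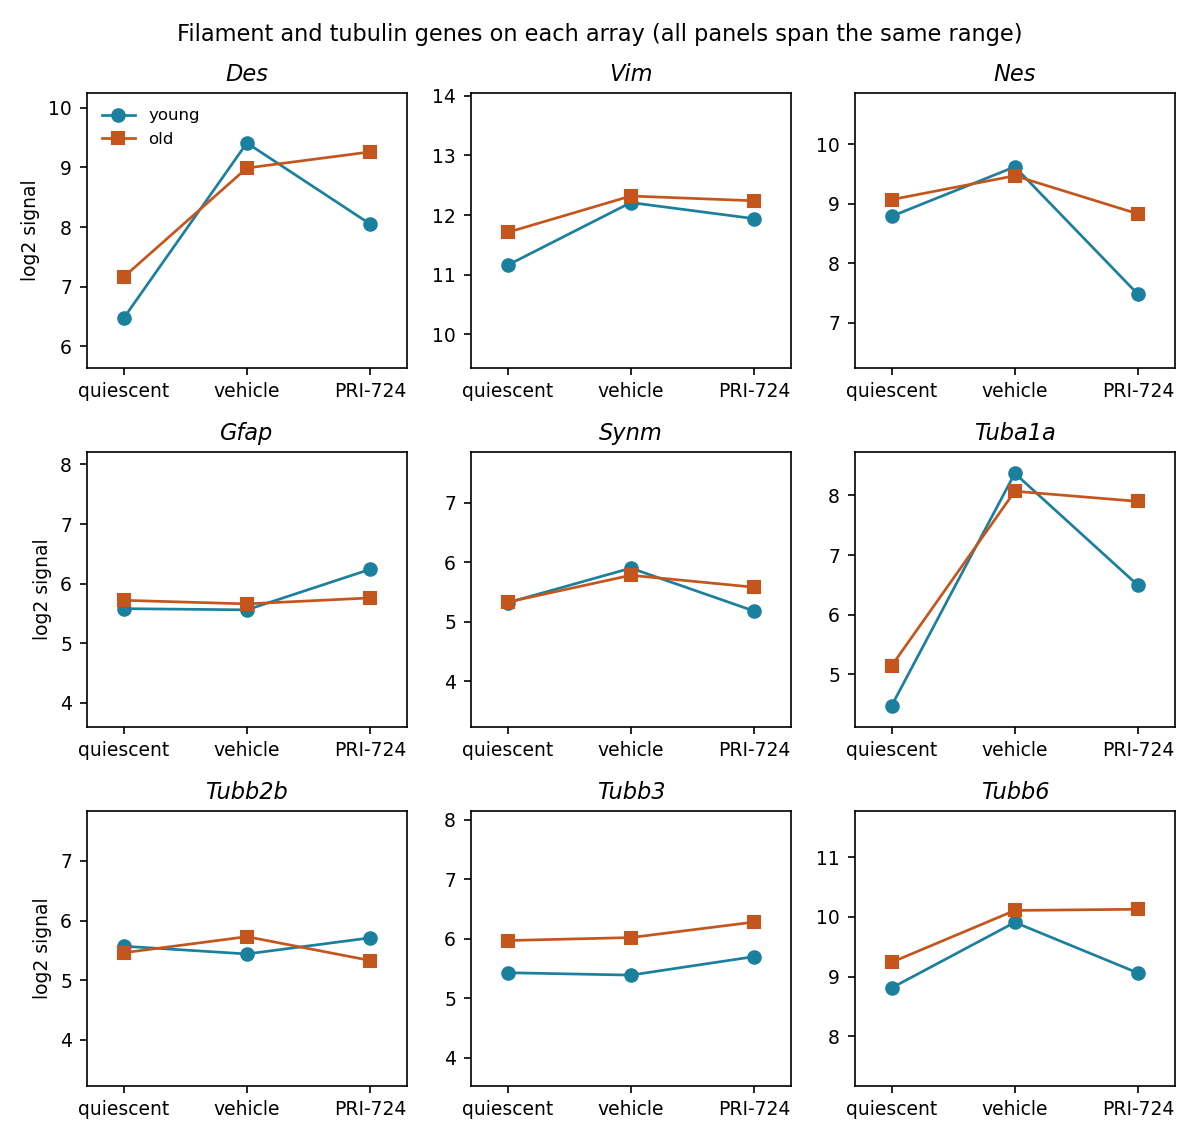
Log2 signal of each gene (vertical axis) in the 3 states (horizontal axis), with 1 point per array, circles for young and squares for old mice, and lines joining the arrays of 1 age. Each panel has its own position but the same span, and both lines climb from quiescent to vehicle for Des, Vim, Nes, Synm, Tuba1a and Tubb6, while Gfap, Tubb2b and Tubb3 in vehicle cells lie within 0.27 log2 units of their quiescent level.

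Desmin, the filament protein of muscle and of rodent stellate cells, had the largest difference among the filament genes. The Des signal was 6.47 in young and 7.16 in old quiescent cells, and 9.41 in young and 8.99 in old vehicle cells. Both vehicle arrays were far above both quiescent arrays. The young pair differed by 2.95 and the old pair by 1.83, with a mean of 2.39 ± 0.38 and a 95% interval of 1.55 to 3.23 (5.24-fold, limma adjusted p = 0.00906). It ranked 65 from the top among the 15526 genes. The call was lost when age was left out of the model (adjusted p = 0.0579). A second probe set is annotated to Des together with the predicted gene Gm15179, and it did not follow. Its signal was 5.36 and 5.17 in quiescent and 5.04 and 4.84 in vehicle cells, young first, so it was 0.32 and 0.33 lower after activation.

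Vimentin is the general filament protein of mesenchymal cells, and macrophages and endothelial cells make it too. The Vim signal was 11.16 in young and 11.71 in old quiescent cells, and 12.21 in young and 12.32 in old vehicle cells. The arrays of the states did not overlap. The mean difference was 0.83 ± 0.16 with an interval of 0.48 to 1.18 (1.78-fold, limma adjusted p = 0.0178). The young pair differed by 1.05 and the old pair by 0.62. This call rested on small margins. Without the young vehicle array the difference was 0.68 (adjusted p = 0.117), and without the young or the old PRI-724 array, which are not part of the contrast, it stayed at 0.83 with an adjusted p of 0.0847 and 0.0842. With cyclic loess it was 0.68 (adjusted p = 0.0664). A second, dimmer probe set of Vim had signals of 9.02 and 10.23 in quiescent and 10.51 and 11.10 in vehicle cells, young first. Its mean difference was 1.17 ± 0.23 (adjusted p = 0.0200 in its place in the fit).

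Nestin, a filament protein of progenitor cells that needs a partner such as vimentin to polymerize, did not pass the test. The Nes signal was 8.79 and 9.07 in young and old quiescent cells, and 9.62 and 9.47 in young and old vehicle cells. The vehicle arrays were the higher ones, by 0.82 and 0.40. On average the difference was 0.61 ± 0.35, and its interval of -0.17 to 1.39 reaches below 0 (limma adjusted p = 0.345). It was 0.13 without the young vehicle array and 1.09 without the old one, and neither was called.

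Synemin is a large filament protein that joins desmin and vimentin filaments to adhesion sites. The Synm signal was 5.32 and 5.33 in young and old quiescent cells and 5.90 and 5.78 in young and old vehicle cells. The quiescent arrays were nearly equal and both vehicle arrays lay above them. These signals were low, at percentiles 21.7 to 37.9 of the tested genes, and were not set apart from background. The ages averaged 0.51 ± 0.26 with an interval of -0.06 to 1.08 (limma adjusted p = 0.275).

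Gfap, the filament protein of astrocytes that also marks stellate cells, had much the same signal in both states. It was 5.58 in young and 5.72 in old quiescent cells, and 5.56 in young and 5.66 in old vehicle cells. The arrays of the states overlapped. The mean difference was -0.04 ± 0.27 with an interval of -0.64 to 0.55 (limma adjusted p = 0.943). The leave-one-array values ran from -0.21 to 0.12, so its sign is not settled. Among the stellate marker filaments, Des and Vim thus rose after activation, and Gfap did not pass the test with a difference near 0. The Gfap signal was low, at percentiles 30.7 to 34.4 of the tested genes on the quiescent and vehicle arrays. It was not set apart from background, so these values cannot show whether Gfap stayed the same.

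Among the tubulins, Tuba1a had the largest difference of all 9 genes. It encodes an alpha-tubulin best known from developing neurons. The signal was 4.47 in young and 5.14 in old quiescent cells, and 8.37 in young and 8.07 in old vehicle cells. Both vehicle arrays were far above both quiescent arrays. The quiescent values lie at or near the mean log2 signal of 4.70 below which genes were left out. They cannot be told from background, so the size of differences from them is uncertain. The young pair differed by 3.90 and the old pair by 2.93. The fitted mean was 3.42 ± 0.38 with an interval of 2.57 to 4.26 (10.7-fold on this probe set, limma adjusted p = 0.00408). The call held in all 16 alternative settings, with adjusted p from 1.90e-09 to 0.0394.

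A second probe set of Tuba1a changed the same way but less. Its signal was 4.28 and 5.17 in quiescent and 6.15 and 6.41 in vehicle cells, young first. Its mean difference of 1.56 ± 0.27 also passed the test in place of the other (limma adjusted p = 0.0140). The size of the rise therefore depends on the probe set. Tuba1a shares much of its coding sequence with Tuba1b and Tuba1c, the probe positions were not used here, and the share of signal from those genes is uncertain.

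Tubb6, a beta-tubulin of many non-neuronal tissues, was higher in vehicle cells but missed the threshold. Its signal was 8.81 in young and 9.24 in old quiescent cells, and 9.91 in young and 10.11 in old vehicle cells. The arrays of the states did not overlap. Activation came with a mean difference of 0.98 ± 0.27 with an interval of 0.38 to 1.59 (1.98-fold, limma adjusted p = 0.0650). Without the old vehicle array it was 1.26 and passed (adjusted p = 0.0431), and without the young vehicle array it was 0.71 (0.716). Without any of the other arrays it lay between 0.88 and 1.09 and was not called.

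Tubb3, the beta-tubulin used as a marker of neurons, did not differ between the states beyond its error. The signal was 5.43 in young and 5.97 in old quiescent cells, and 5.39 in young and 6.02 in old vehicle cells. In both states the old array was the higher one. These signals were low as well, at percentiles 26.2 to 41.6 of the tested genes, and were not set apart from background. Both ages together differed by 0.00 ± 0.24 with an interval of -0.54 to 0.55 (limma adjusted p = 0.997).

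For Tubb2b, another beta-tubulin abundant in neurons, the answer depended on the probe set. The brighter one, used in the fit, read 5.57 in young and 5.46 in old quiescent cells, and 5.44 in young and 5.73 in old vehicle cells. These overlap, and the mean difference was 0.07 ± 0.26 with an interval of -0.52 to 0.66 (limma adjusted p = 0.905). The dimmer one read 4.77 and 5.03 in quiescent and 5.77 and 5.83 in vehicle cells, young first. Those arrays do not overlap, and its mean difference was 0.90 ± 0.30 (adjusted p = 0.118). Neither passed the test. Both probe sets had low signals that were not set apart from background, the brighter one at percentiles 26.1 to 33.8 of the tested genes on these arrays. Tubb2b is nearly identical to Tubb2a in its coding part, and Tubb2a, itself uncalled, was 1.29 ± 0.40 higher (adjusted p = 0.0928).

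**Figure D2:**
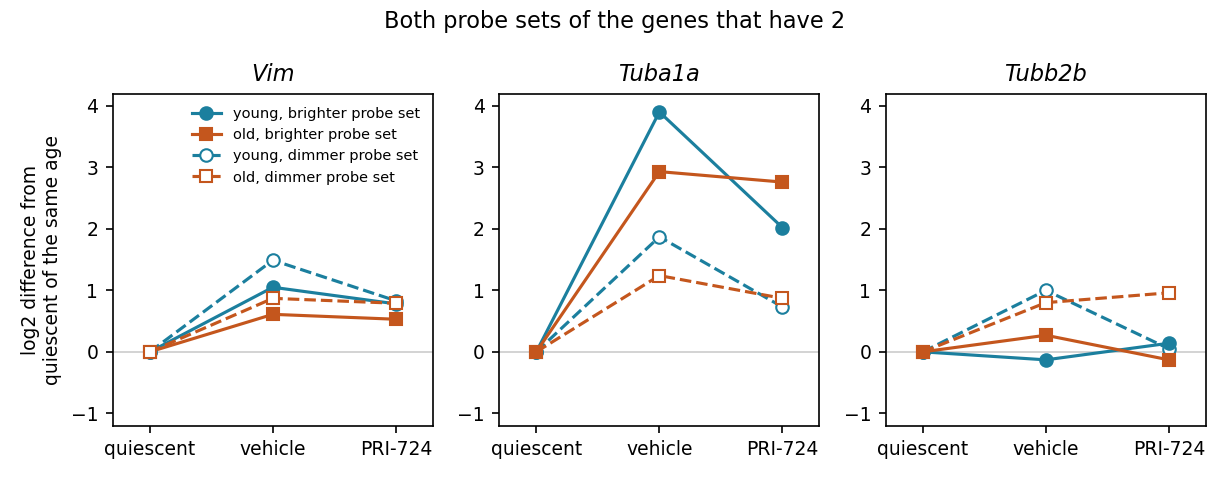
Log2 difference from the quiescent array of the same age (vertical axis) in each state (horizontal axis) for the genes with 2 usable probe sets, with filled symbols and solid lines for the brighter and open symbols and dashed lines for the dimmer probe set, circles for young and squares for old mice. Both probe sets of Vim and of Tuba1a lie above 0 in vehicle cells, at 2.93 and 3.90 for the brighter and 1.24 and 1.88 for the dimmer one of Tuba1a, whereas for Tubb2b the dimmer one lies at 0.80 and 1.0 and the brighter one at -0.14 and 0.27.

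The effect of PRI-724 on activated cells was examined as PRI-724 minus vehicle. Of the 9 genes, 0 rose and 0 fell (limma, adjusted p under 0.05). Over all genes tested, 0.271% rose and 1.93% fell. At an unadjusted p under 0.05, 2 members (Nes and Tuba1a) were lower and 0 were higher, while 11.1% of all genes were lower and 4.3% higher. The median difference of the 9 genes was -0.42, beside -0.05 over all genes tested. Young and old pairs had medians of -0.72 and -0.08, beside -0.14 and -0.01 over all genes. In the 3882 brightest genes, the young median was -0.42 and the old one 0.00. Quantile normalization gives all arrays the same signal range. With it, Nes differed by -1.13, Tuba1a by -0.78, Des by -0.28 and Tubb6 by -0.16. Vim then differed by -0.11, Tubb3 by 0.25, Gfap by 0.49, Synm by -0.48 and Tubb2b by -0.07. Gfap, Synm and Tubb2b lay further from 0 than without it, and the other genes nearer. The part of the young array's narrow signal range in the differences of PRI-724 from vehicle was not tested. Both PRI-724 arrays lay above both vehicle arrays in 1 gene (Gfap), a pattern met by 18.2% of all genes. They lay below in 3 genes (Nes, Synm and Tuba1a), a pattern met by 26.3%.

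Nes had the largest difference. Its signal was 7.48 in young PRI-724 cells, the lowest of the 6 arrays, and 8.83 in old PRI-724 cells, against 9.62 and 9.47 in young and old vehicle cells. Both PRI-724 arrays were below both vehicle arrays and also below the quiescent array of their age. The young pair differed by -2.13 and the old pair by -0.65, with a mean of -1.39 ± 0.35 and an interval of -2.17 to -0.61 (limma adjusted p = 0.0844). Which arrays entered the fit decided the call. It passed on the 4 arrays compared alone (adjusted p = 0.00413), without the young quiescent array (0.00288), without the old quiescent array (0.00353) and without the old vehicle array (difference -1.87, adjusted p = 0.00571). It did not pass with cyclic loess (difference -1.21, limma adjusted p = 0.143), with quantile normalization (-1.13, 0.158) or with no age in the model (-1.39, 0.232). Nor was it called without the young vehicle array, at -0.91, the young PRI-724 array, at -0.75, or the old PRI-724 array, at -2.03.

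Tuba1a read 6.49 in young and 7.90 in old PRI-724 cells. The young array was 1.88 below its vehicle array and the old array 0.17 below. Together they gave -1.02 ± 0.38 with an interval of -1.87 to -0.18 (limma adjusted p = 0.233). Without the old vehicle array it was -1.69 and passed (adjusted p = 0.0156), and without the old PRI-724 array it was -1.64 (0.0906). It was -0.35 without the young vehicle array (1.0) and -0.41 without the young PRI-724 array (0.932). The dimmer probe set read 5.01 and 6.04, with a mean difference of -0.76 ± 0.27 (adjusted p = 0.219).

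Des read 8.05 in young and 9.26 in old PRI-724 cells. The young array was 1.36 below its vehicle array, the old array 0.27 above, and the arrays of the states overlapped. Their mean was -0.54 ± 0.38 with an interval of -1.38 to 0.30 (limma adjusted p = 0.523). It turned to 0.14 without the young vehicle array.

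Vim read 11.94 in young and 12.24 in old PRI-724 cells, against 12.21 and 12.32 in vehicle cells. The mean difference was -0.17 ± 0.16 with an interval of -0.52 to 0.18 (limma adjusted p = 0.629). Of the 9 genes, Vim had the narrowest interval in this comparison.

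Gfap read 6.24 in young and 5.76 in old PRI-724 cells. The young value is the highest of its 6 arrays, and the old one was 0.10 above its vehicle array. The mean difference was 0.39 ± 0.27 with an interval of -0.21 to 0.98 (limma adjusted p = 0.518). Synm read 5.18 and 5.58, the young value being its lowest, with a mean difference of -0.45 ± 0.26 (adjusted p = 0.434).

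Of the other tubulins, Tubb6 read 9.06 in young and 10.13 in old PRI-724 cells. The young array was 0.86 below its vehicle array and the old array 0.02 above, for a mean of -0.42 ± 0.27 (limma adjusted p = 0.495). Tubb3 read 5.70 and 6.28, which was 0.32 and 0.26 above vehicle, with a mean of 0.29 ± 0.24 (adjusted p = 0.600). Tubb2b read 5.71 and 5.33, the young array 0.28 above vehicle and the old array 0.40 below, with a mean of -0.06 ± 0.26 (adjusted p = 0.936). Its dimmer probe set read 4.82 and 5.99 and had the opposite order, the young array 0.95 below vehicle and the old array 0.16 above.

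**Figure D3:**
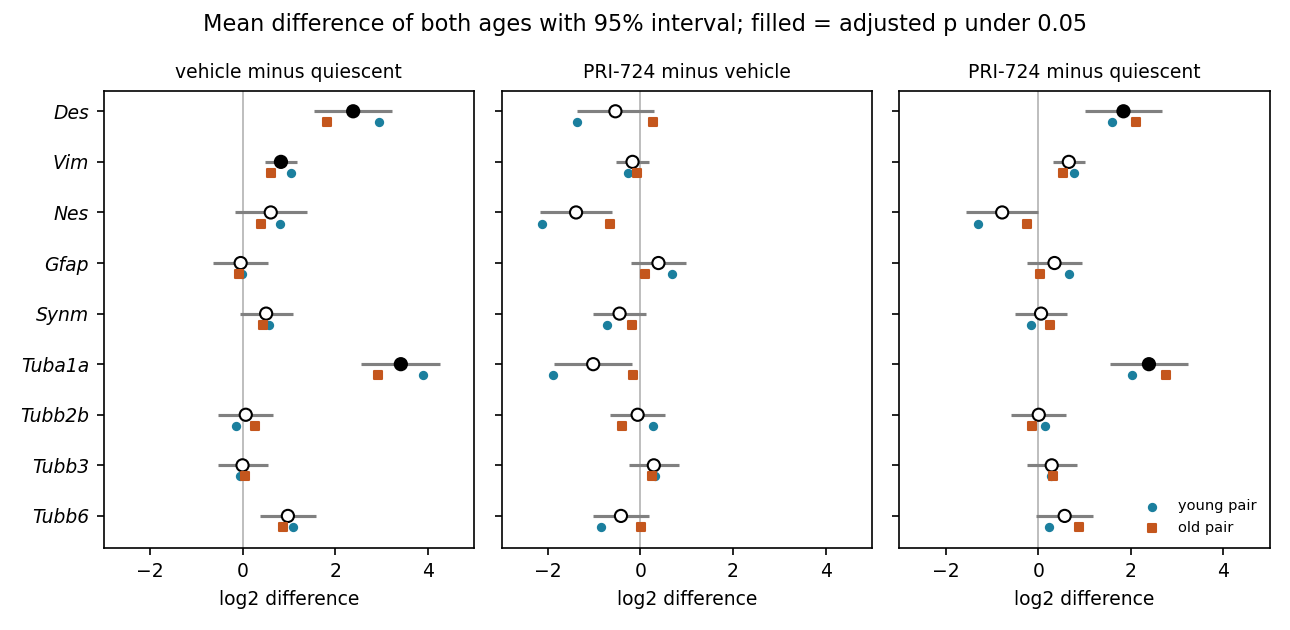
Log2 difference (horizontal axis) of each gene (vertical axis) in the 3 comparisons of states, with the mean of both ages as large circles, filled where the limma adjusted p was under 0.05, bars for the 95% interval, and small blue circles and orange squares for the young and old pair. Des, Vim and Tuba1a are filled in the first panel, none in the middle panel, and Des and Tuba1a in the last, and in the middle panel the young pair lies left of the old pair for 6 of the 9 genes.

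PRI-724 cells were then set against quiescent cells, with the same quiescent arrays as in the activation comparison. Of the 9 genes, 2 rose (Des and Tuba1a) and 0 fell (limma, adjusted p under 0.05). Over all genes tested, 1.28% rose and 2.43% fell. At an unadjusted p under 0.05, Vim was also higher and 0 were lower, while 8.2% of all genes were higher and 8.1% lower. Both PRI-724 arrays lay above both quiescent arrays in 4 genes (Des, Vim, Gfap and Tuba1a), a pattern met by 19.6% of all genes, and below them in 0, a pattern met by 18.0%. For Gfap the margin was small, at 5.76 in old PRI-724 against 5.72 in old quiescent cells. On the dimmer probe sets of Vim and Tuba1a the arrays overlapped. There young PRI-724 cells read 9.85 for Vim and 5.01 for Tuba1a, against 10.23 and 5.17 in old quiescent cells.

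Tuba1a was 2.02 above quiescent in young and 2.76 in old PRI-724 cells. The fitted mean was 2.39 ± 0.38 with an interval of 1.55 to 3.24 (5.25-fold on this probe set, limma adjusted p = 0.00819). Its size is uncertain given the low quiescent level. Des was 1.59 and 2.10 above quiescent, a mean of 1.84 ± 0.38 with an interval of 1.0 to 2.68 (3.59-fold, adjusted p = 0.0267). Both genes were thus well above their quiescent level in both ages. Both calls were lost without either PRI-724 array. Without the young one the differences were 3.01 for Tuba1a (adjusted p = 0.107) and 2.38 for Des (0.138), and without the old one 1.78 (0.139) and 1.31 (0.212). The call of Des was also lost with no age in the model (adjusted p = 0.11), and that of Tuba1a with its dimmer probe set, which differed by 0.80 (adjusted p = 0.163).

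Vim was 0.78 and 0.54 above quiescent in young and old PRI-724 cells, a mean of 0.66 ± 0.16 that just missed the threshold (limma adjusted p = 0.0510). It passed without the old quiescent array, at 0.83 (adjusted p = 0.000217), and without the young or the old vehicle array (0.0063 and 0.00919). It did not pass without the young quiescent array, at 0.49 (0.129), or without the young or the old PRI-724 array, at 0.64 and 0.67 (0.298 and 0.251). The dimmer probe set of Vim differed by 0.81 ± 0.23 and was not called (limma adjusted p = 0.0935). Nes was 1.31 and 0.25 below quiescent, a mean of -0.78 ± 0.35 (adjusted p = 0.309). Tubb6 differed by 0.24 and 0.89 in the young and old pairs, a mean of 0.57 ± 0.27 (adjusted p = 0.347). Gfap differed by 0.66 and 0.03, a mean of 0.35 ± 0.27 (0.626), and Tubb3 by 0.27 and 0.31, a mean of 0.29 ± 0.24 (0.665). The pairs had opposite signs for Synm, at -0.15 and 0.26 with a mean of 0.06 ± 0.26 (0.967), and for Tubb2b, at 0.14 and -0.13 with a mean of 0.01 ± 0.26 (0.997).

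The order of the states was the same in both ages for some genes and not for others. In young cells the order was quiescent, PRI-724, vehicle for Des, Vim, Tuba1a and Tubb6, so PRI-724 cells lay between the other states. In old cells it was the same for Vim and Tuba1a, while for Des and Tubb6 PRI-724 cells were the highest. On the log2 scale, young PRI-724 cells kept 53.8% of the difference of vehicle over quiescent for Des, 74.8% for Vim and 22.1% for Tubb6. In old cells the corresponding values were 114.9%, 86.9% and 102.4%. For Nes the lowest state was PRI-724 in both ages. With 1 array behind each value these shares have no error, and the difference between ages was not tested.

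Age was examined as old minus young over the 3 states. Of the 9 genes, 0 were called (limma, adjusted p under 0.05). Over all genes tested, 0.515% were called in either direction. At an unadjusted p under 0.05, 3 members (Vim, Tubb3 and Tubb6) were higher in old cells and 0 were lower, while 7.2% of all genes were higher and 3.2% lower. Tubb3 had the most even difference. It was higher in old cells by 0.54 in quiescent, 0.64 in vehicle and 0.58 in PRI-724 cells, a mean of 0.59 ± 0.20 with an interval of 0.14 to 1.03 (n = 3 pairs, adjusted p = 0.322). Tubb6 was higher by 0.42, 0.20 and 1.07 in the same order, a mean of 0.56 ± 0.22 (adjusted p = 0.418). Vim was higher by 0.55, 0.12 and 0.30, a mean of 0.32 ± 0.13 (adjusted p = 0.424). The size for Vim depended on the probe set. Its dimmer one, in its place in the fit, was 0.99 ± 0.19 higher (limma adjusted p = 0.0617), with the old array the higher one in every state.

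On the probe sets used in the fit, the age difference changed sign between states for Des, Nes, Tuba1a, Gfap and Tubb2b. For Tuba1a and Tubb2b this depended on the probe set. On their dimmer probe sets the old array was the higher one in every state. The mean differences there were 0.73 ± 0.22 for Tuba1a and 0.50 ± 0.25 for Tubb2b (limma adjusted p = 0.269 and 0.537). Des was 0.69 higher in old quiescent cells, 0.42 lower in old vehicle cells and 1.21 higher in old PRI-724 cells, a mean of 0.49 ± 0.31 (limma adjusted p = 0.643). Nes differed by 0.28, -0.14 and 1.35, a mean of 0.50 ± 0.29 (0.609), and Tuba1a by 0.67, -0.30 and 1.41, a mean of 0.59 ± 0.31 (0.558). For these 3 genes the old values exceeded the young ones most in PRI-724 cells, where the young array had the narrow signal range. Gfap differed by 0.14, 0.09 and -0.48, a mean of -0.08 ± 0.22 (0.939), and Tubb2b by -0.11, 0.30 and -0.38, a mean of -0.07 ± 0.22 (0.952). Synm was nearly equal in quiescent cells and differed by -0.12 in vehicle and 0.41 in PRI-724 cells, a mean of 0.10 ± 0.21 (0.922).

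The other genes of these families and their partners were read from lists. Among 15 tested intermediate filament genes of 20 listed, such as keratins, neurofilaments and lamins, 1 rose after activation, 0 fell (also 0 lower at an unadjusted p under 0.05), and the median difference was -0.11. The gene that rose was Lmna, which encodes the nuclear lamins A and C. Its signal was 6.82 and 7.41 in quiescent, 8.02 and 8.40 in vehicle and 8.26 and 8.91 in PRI-724 cells, young first. The old array was the higher one in each state. It was 1.09 ± 0.27 higher in vehicle than quiescent cells (limma adjusted p = 0.0460) and 1.47 ± 0.27 higher in PRI-724 than quiescent cells (adjusted p = 0.0171). The first call was lost whichever of the 6 arrays was left out (differences of 0.98 to 1.21), and the second without either quiescent or either PRI-724 array (1.38 to 1.56).

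In the age comparison 1 of the 15 rose with age. This was Krt18, a keratin of simple epithelia including hepatocytes, with signals of 7.27, 6.77 and 7.38 in young and 8.68, 8.18 and 8.59 in old quiescent, vehicle and PRI-724 cells. Every old array was above every young array, and the mean difference was 1.35 ± 0.22 (limma adjusted p = 0.0333). Without either quiescent or either PRI-724 array it missed the threshold, at 1.31 to 1.41, and with cyclic loess too, at 1.19 (adjusted p = 0.143). Its keratin partner Krt8 was 0.82 ± 0.24 higher (adjusted p = 0.249). Of the 7 hepatocyte markers on the arrays, 3 rose with age and 0 fell, and their part in the keratin values was not tested.

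Proteins that bind intermediate filaments were represented by 8 tested genes of 10 listed, of which 1 rose after activation. It was Cryab, a small heat shock protein that binds desmin filaments, with signals of 8.98 and 9.20 in quiescent, 11.07 and 10.25 in vehicle and 9.66 and 9.83 in PRI-724 cells, young first. The vehicle arrays were the highest. Vehicle minus quiescent was 1.57 ± 0.29 (limma adjusted p = 0.0167), and this call was lost without the young vehicle array, at 1.06 (0.202), and without the young or the old PRI-724 array (0.064 and 0.0638). The large crosslinkers Plec (0.43 ± 0.29), Dst (0.36 ± 0.30) and Macf1 (0.46 ± 0.30) were not called.

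Of 16 other tubulin genes listed, 10 were tested. The mean differences of those tested ran from 0.15 to 1.73 after activation, with a median of 0.84 beside 0.04 over all genes, and 2 of them rose. Tubb5, the most widely made beta-tubulin, read 10.08 and 10.46 in quiescent, 11.34 and 11.61 in vehicle and 10.59 and 11.48 in PRI-724 cells, young first. Both vehicle arrays were above both quiescent arrays, by a mean of 1.20 ± 0.21 (limma adjusted p = 0.0126). Tubb4a, a beta-tubulin of the nervous system, read 6.47 and 5.63 in quiescent, 8.47 and 7.10 in vehicle and 6.15 and 6.65 in PRI-724 cells. Its young arrays were the higher ones except in PRI-724 cells, and the mean difference was 1.73 ± 0.40 (adjusted p = 0.0374). Without the young vehicle array the values were 1.03 for Tubb5 (adjusted p = 0.0503) and 1.13 for Tubb4a (0.336). The near copies of Tuba1a were uncalled, Tuba1b at 0.94 ± 0.25 (0.0617) and Tuba1c at 0.16 ± 0.28 (0.775).

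Among 23 tested genes of microtubule-binding proteins, 1 rose and 1 fell after activation, with a median of 0.06. Dpysl2, which binds tubulin dimers and promotes assembly, read 7.14 and 7.53 in quiescent, 10.04 and 9.83 in vehicle and 7.68 and 9.22 in PRI-724 cells, young first. It rose by 2.60 ± 0.38 (limma adjusted p = 0.00787) and was 1.48 ± 0.38 lower with PRI-724 (adjusted p = 0.0917). The gene that fell was Map1b, a microtubule-stabilizing protein, which read 9.42 and 8.57 in quiescent, 7.25 and 7.81 in vehicle and 8.28 and 8.80 in PRI-724 cells. Its difference was -1.46 ± 0.37 (adjusted p = 0.0477), with -0.77 and an adjusted p of 0.543 without the young quiescent array, -1.11 and 0.362 without the young vehicle array, and a lost call at the same size of -1.46 without the young or the old PRI-724 array (0.094 and 0.0944).

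In the comparison of PRI-724 with quiescent cells, 1 microtubule-binding gene rose and 0 fell. This was Dclk1, a doublecortin-like kinase that binds microtubules. It read 5.45 and 5.69 in quiescent, 6.52 and 6.63 in vehicle and 7.46 and 7.73 in PRI-724 cells, young first, so PRI-724 cells were the highest in both ages. The mean difference was 2.02 ± 0.26 (limma adjusted p = 0.00261), and the call was lost without the young PRI-724 array, at 2.07 (0.107), or the old one, at 1.98 (0.0619).

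Tubulin folding and modification was covered by 18 tested genes of 22 listed. Their median difference after activation was 0.33, beside 0.04 over all genes. Only Ttll1, a subunit of a tubulin polyglutamylase, was called in this list. It read 5.56 and 7.40 in quiescent, 8.52 and 8.84 in vehicle and 7.26 and 8.50 in PRI-724 cells, young first. Its difference was 2.20 ± 0.36 (limma adjusted p = 0.0107), and without the young vehicle array it was 1.60 (0.0694), and 2.20 without the young or the old PRI-724 array (0.0608 and 0.0606). With PRI-724 minus vehicle, 0 genes of all 5 lists were called by limma. At an unadjusted p under 0.05, there were 0 of 15 among the filament genes, 2 of 8 among their linkers, 1 of 10 among the tubulins, 4 of 23 among the microtubule-binding genes and 2 of 18 in the last list, beside 15.5% of all genes.

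**Figure D4:**
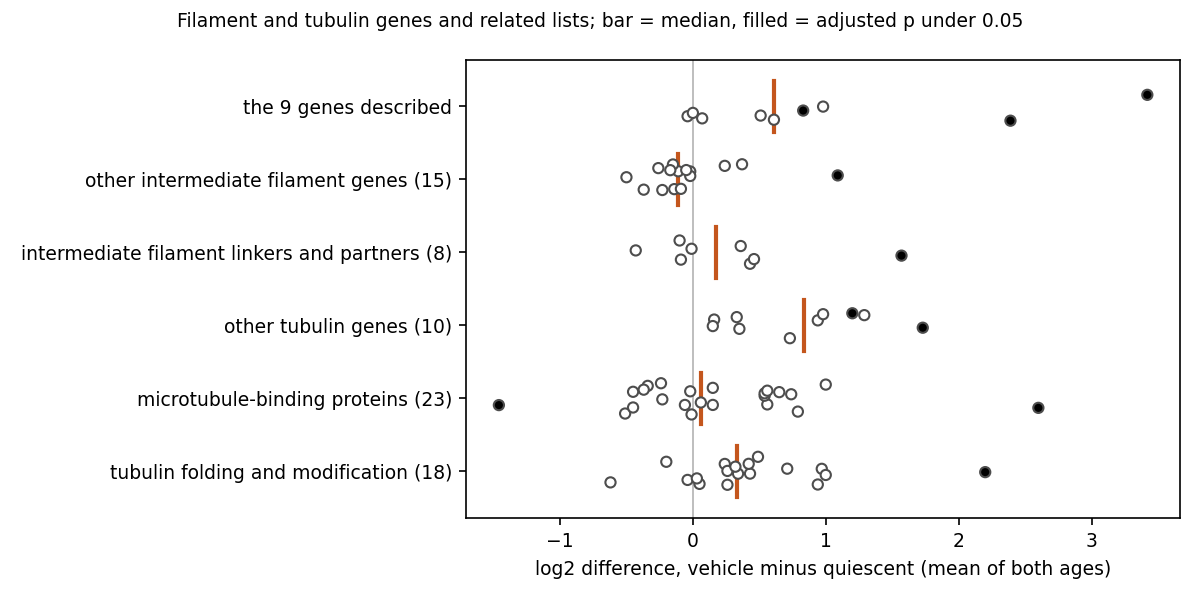
Log2 difference, vehicle minus quiescent, as the mean of both ages (horizontal axis) for the 9 genes described and for the tested genes of 5 related lists (rows, with the number of genes), where each circle is a gene, filled where the limma adjusted p was under 0.05, and the vertical bar is the median of the list. The 10 other tubulin genes have a median of 0.84 and the 15 other intermediate filament genes one of -0.11, beside 0.04 over all genes tested.

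Markers of cell types that could share these samples were read on the same arrays. Values are log2 signals of probe sets, so no marker is at 0 and a low value cannot be set apart from background. The 12 stellate markers averaged 8.46 and 8.39 in quiescent, 9.00 and 8.99 in vehicle and 8.14 and 8.67 in PRI-724 cells, young first. After activation 6 of the 12 rose and 2 fell. The 10 macrophage markers averaged 8.56 and 9.55, then 9.10 and 8.86, then 5.90 and 6.14, and with PRI-724 minus vehicle 8 of 10 fell. The 9 markers of sinusoidal endothelial cells averaged 10.12 and 8.79, then 10.03 and 9.82, then 6.25 and 7.18, and 9 of 9 fell. The summed linear signal of the macrophage list ran from 5399 to 10482 in quiescent, 6333 to 7531 in vehicle and 1027 to 1424 in PRI-724 cells. That of the endothelial list ran from 8810 to 19226, from 10503 to 11989 and from 884 to 2394. So the labelled stellate cells carried strong macrophage and endothelial signal in 4 of the 6 arrays. Vim and the tubulins are made in those cells as well, and the part of that signal in their values was not tested.

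**Figure D5:**
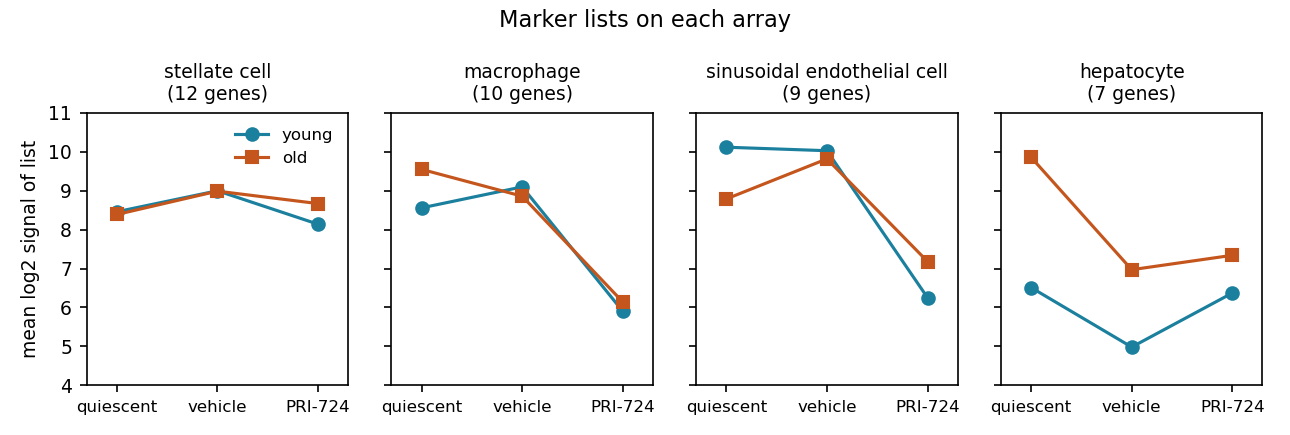
Mean log2 signal (vertical axis) of 4 marker lists in the 3 states (horizontal axis), with 1 point per array, circles for young and squares for old mice. Macrophage and endothelial lists drop between vehicle and PRI-724 in both ages, to 5.90 and 6.14 and to 6.25 and 7.18, and the hepatocyte list is highest in old quiescent cells at 9.86.

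Hepatocyte markers (7 of 8 on the arrays) averaged 6.51 and 9.86 in quiescent, 4.98 and 6.97 in vehicle and 6.37 and 7.34 in PRI-724 cells, young first. Of these, 4 of 7 fell after activation, with a summed signal of 1084 to 9388 in quiescent, 299 to 1778 in vehicle and 922 to 2062 in PRI-724 cells. Markers of dividing cells averaged 5.04 and 5.13, then 6.40 and 6.05, then 5.08 and 5.79, and 2 of 5 rose after activation. Mesothelial markers averaged 5.79 and 5.63, then 7.11 and 6.96, then 6.79 and 7.03, and 3 of 6 rose. The lists of dividing and mesothelial cells were thus higher in vehicle than quiescent cells, as were Des, Vim and Tuba1a, and the hepatocyte list was lower. The part of these lists in the rise of Des, Vim and Tuba1a was not tested.

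Some of the 9 genes are also known from nerve and muscle. Glia markers averaged between 4.33 and 4.65 over the 6 arrays, neuron markers between 4.60 and 5.12, and skeletal and cardiac muscle markers between 5.36 and 5.70. None of the 3 glia, 3 neuron or 6 muscle markers tested was called by limma in the 4 comparisons. At an unadjusted p under 0.05, Mbp of the glia list was higher in PRI-724 cells than in both other states, Gap43 of the neuron list was lower in vehicle than quiescent cells, and Tnnt2 of the muscle list was higher in vehicle and in PRI-724 than in quiescent cells. The 7 smooth muscle and pericyte markers averaged between 6.30 and 6.93, with a summed signal of 1082 to 2021 in quiescent, 1110 to 1188 in vehicle and 807 to 937 in PRI-724 cells. Of these, 1 rose after activation and 1 fell with PRI-724, in both cases Mcam (1.58 and -1.73). The 5 portal fibroblast markers tested had a summed signal of 257 to 262 in quiescent, 279 to 598 in vehicle and 475 to 932 in PRI-724 cells. Of these, 1 rose in vehicle and in PRI-724 against quiescent cells, in both cases Fbln2 (1.89 and 3.05). Their part in the values of the 9 genes was not tested.

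Likeness of the profiles across the 6 arrays is described by Pearson's r over arrays that share their states and ages. Des and Tuba1a had r = 0.99, Des and Vim 0.95, Vim and Tuba1a 0.95, and Tubb6 had 0.91 with Des, 0.91 with Tuba1a and 0.89 with Vim. Nes followed Synm (0.82) more closely than Des (0.32), Vim (0.25) or Tuba1a (0.34). Synm was as close to Tubb6 (0.84), Tuba1a (0.80) and Des (0.77) as to Nes. Gfap and Nes ran opposite to each other (-0.91), with Gfap highest and Nes lowest on the young PRI-724 array. The highest r of Tubb2b with another of these genes was 0.40, with Gfap.

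The genes most like each of the 9 were sought among the 3659 tested genes with the largest spread, leaving out predicted genes. For Des they were Rhoq (0.998), Fam168a (0.997) and Cast (0.996). For Tuba1a they were Cops9 (0.999), Enpp5 (0.998) and Adgrd1 (0.997), and for Vim Ccng1 (0.998), Nid1 (0.997) and Itpr3 (0.996). For Nes they were Cacul1 (0.998), Hltf (0.991) and Rnf5 (0.989), and for Synm Stard8 (0.997), Fam114a1 (0.997) and Arhgap11a (0.996). For Tubb6 they were Pole (0.998), Atp5d (0.995) and Cpt1a (0.993). For Tubb3 they were Jag1 (0.962), Gpt2 (0.954) and Cad (0.941), and for Gfap Ccn3 (0.985), Stfa1 (0.959) and Krtap5-1 (0.947). For Tubb2b, whose values hardly vary, the closest were Mir1895 (0.911), Prrt2 (0.863) and Siglecf (0.834). With 6 arrays and 3659 genes, values this high are found for many genes, so they describe a shape only.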

How the data were processed

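Per the labels' protocols, RNeasy columns gave the RNA of the pooled stellate cells and GeneChip WT PLUS reagents its label. The deposited values are log2 signals of 41345 probe sets, made with Affymetrix Expression Console and RMA per the submitters' processing notes. Versions, options and build were not given in the sources used here. The 23521 probe sets with 1 gene symbol were used, not the 1814 with several or the 16010 with none. The brightest probe set stood for a gene, and the 30% of genes with the lowest mean (under 4.70) were left out.

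Differences were computed with limma 3.58.1 (R 4.3.3) from all 6 arrays with age and state as terms, with an intensity trend in the moderated variances (2 residual and 7.76 prior degrees of freedom). The Benjamini-Hochberg adjustment ran over 15526 genes. Nothing says that the arrays repeat separate cultures beyond the age groups. The fit was tested on simulated data with independent noise on each array. No simulated array had a narrow signal range and no simulated response differed between ages, so those limits were not examined. Upstream sequences and names came from RefSeq for GRCm38.p6, and all 9 genes matched by Entrez identifier. Figures were drawn with matplotlib 3.10.9 in Python 3.11.15.

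The members and lists were chosen with earlier results of these data known. Named genes were all 9 members, up to 4 called genes of each list and comparison with the largest differences, and the 3 genes most correlated with each member among the 25% of genes with the largest spread. The alternatives were another filter, the mean of all probe sets, no trend, other normalizations, other models and each array left out. The dimmer probe sets and robust variances were added after seeing the data.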

Additional observations from a re-analysis of the deposited data

Results flagged for a closer look

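The difference of PRI-724 from vehicle ran in opposite directions in the ages for 2 of the 9 genes, with at least 0.25 log2 units on each side. For Des the young pair differed by -1.36 and the old pair by 0.27, so the old difference exceeded the young one by 1.63. For Tubb2b the young pair differed by 0.28 and the old pair by -0.40, a difference of -0.68, and its dimmer probe set had the opposite signs, -0.95 and 0.16. The difference between ages was not tested, since each value rests on 1 array per age and state. The young values involve the array whose signals had an interquartile range of 1.71.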

How the results depend on the processing

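Of 535 member values under alternative settings, 485 kept their direction and their side of the threshold, 15 kept the direction but were no longer called, 10 became called and 25 changed sign; every value that changed sign was uncalled. The count of the 9 genes called in vehicle minus quiescent, 3, was 1 (Tuba1a) with no age in the model and ran from 2 to 4 with 1 array left out. In PRI-724 minus vehicle the count of 0 became 1 (Nes) on the arrays compared alone and ran from 0 to 2 with 1 array left out. In PRI-724 minus quiescent the count of 2 became 1 (Tuba1a) with no age in the model, 1 (Des) with the dimmer probe sets and ran from 0 to 3 with 1 array left out. The call of Vim in vehicle minus quiescent was also lost with quantile normalization (adjusted p = 0.0721), no intensity trend (0.0921), no age in the model (0.107) and the arrays compared alone (0.0892). The causes were not tested. In old minus young it was 0 throughout.

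Under other normalizations the sign changed for Tubb3 in vehicle minus quiescent (-0.07 with cyclic loess, -0.04 with quantiles), for Tubb2b in PRI-724 minus quiescent (-0.05 and -0.02) and for Synm there (0.00 after rounding, with quantiles). The age difference of Tubb2b was 0.22 as the mean of its probe sets and 0.50 with the dimmer one. With 1 array left out, values that crossed 0 ran, in vehicle minus quiescent, from -0.21 to 0.12 for Gfap, from -0.03 to 0.04 for Tubb3 and from -0.20 to 0.34 for Tubb2b. In PRI-724 minus vehicle they ran from -1.23 to 0.14 for Des and from -0.34 to 0.21 for Tubb2b. In PRI-724 minus quiescent they ran from -0.23 to 0.24 for Tubb2b and from -0.18 to 0.29 for Synm. In old minus young they ran from -0.20 to 0.12 for Gfap, from -0.06 to 0.21 for Synm and from -0.25 to 0.09 for Tubb2b.

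With no age in the model, 7 activation calls of the related lists (Lmna, Cryab, Tubb4a, Tubb5, Dpysl2, Map1b and Ttll1) were lost, with adjusted p from 0.055 to 0.162. With cyclic loess or quantiles those of Lmna, Map1b and Tubb4a were lost (0.0612 to 0.107), and with quantiles that of Cryab (0.0529).

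The number of genes called over the whole table also moved. It was 911 in vehicle minus quiescent and ran from 114 (no age in the model) to 1230 (without the old vehicle array). It was 341 in PRI-724 minus vehicle, from 0 to 968, and 577 in PRI-724 minus quiescent, from 0 to 1064, with 0 in both without the young PRI-724 array. It was 80 in old minus young (41 higher, 39 lower), from 0 to 343, with 7 under cyclic loess (2 higher, 5 lower) and 12 with quantiles (4 higher, 8 lower). Age in the model pairs the arrays of each age, and the fit without it is given above. No paired analysis was possible beyond that because each age and state had only 1 array. The number of arrays, 1 in each group, limits the precision, and signals near 4.70 cannot be told from background.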
